A study of Mus musculus with 2 samples.

Results

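The genes described here encode the enzymes and transporters that carry glucose to lactate, the pentose phosphate enzymes that branch off at glucose-6-phosphate, the kinases and core subunits at the pyruvate dehydrogenase step, and the first enzymes of glycogen synthesis. A list of 43 such genes was matched by symbol to the 23238 gene symbols of the deposited count tables, and all 43 were found. Of these, 40 had 50 or more reads in at least 1 of the 2 libraries, and each of the 40 had 50 or more in both, so none was included through its higher library alone. The other 3 were Eno1 with 2 reads in each library, Fbp1, which encodes the gluconeogenic fructose bisphosphatase, with 0 and 1, and Pfkm, the muscle-type phosphofructokinase, with 47 in the control library and 32 in the treated library. Pfkm lies just outside the floor of 50 reads, and Eno2, with 114 and 62 reads, is the least read gene inside it.

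The cells were bone marrow-derived dendritic cells (BMDCs) of female C57BL/6 mice aged 7 weeks, grown from marrow in 20 ng/ml GM-CSF, with more added on day 3 and cells taken on day 6. Both libraries share this strain, age, sex and culture. The labels list no genetic change. The UNE-C1 group is 1 library, called the treated library below, from cells given 100 nM UNE-C1 for 24 h. This agent is a piece of the cysteinyl-tRNA synthetase protein that TLR2 and TLR6, Toll-like receptors of the cell surface, are known to bind. The control group is 1 library whose treatment the labels do not state beyond its name. RNA from loosely attached and floating cells was read near its 3' end with the QuantSeq kit. A culture of this kind can hold several myeloid cell types, and the labels do not say whether animals were pooled. The comparison asks how the RNA of these genes differed after 1 day of UNE-C1.

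In glycolysis, glucose enters through a transporter, is trapped by hexokinase, is split into triose phosphates and ends as pyruvate, which lactate dehydrogenase reduces to lactate for export. The pentose phosphate pathway makes NADPH in its oxidative arm and ribose phosphate in its non-oxidative arm. Dendritic cells stimulated through Toll-like receptors are known for a switch toward glucose uptake and lactate release, and for a small glycogen store that they draw on early after stimulation.

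Total depth was 14857198 reads for the control library and 15975821 for the treated one. Levels are given as CPM, read counts scaled to library size with a correction for library composition (TMM). A fold change is log2((CPM + 1)/(CPM + 1)) of UNE-C1 over control, and a gene is called higher or lower when this reaches 2-fold. A ratio is the plain quotient of the CPM values, with a 95% interval that covers counting error only. Since each group is a single library, no test was possible and no difference has a replicate check. The summed level of 13 dendritic cell markers was 7233 CPM in the control library and 7285 CPM in the treated library, most of it from the MHC class II genes H2-Ab1 and Cd74, and only Cd209a had 0 reads in both. Of the 12 past the floor, 2 were called higher (Irf8 and Xcr1) and 8 lay below 0. Of these 8, 2 were called lower (Itgax, from 759 to 246 CPM, and Clec9a, from 10.5 to 2.40 CPM). Clec9a, with 175 and 34 reads, passed the floor of 50 reads through the control library alone. Zbtb46 and Flt3, which mark conventional dendritic cells, were low, at 3.71 and 8.55 CPM in the control library and 4.37 CPM each in the treated library. Markers of other cells differed between the libraries. The summed level of the 13 neutrophil genes found, of 14 listed, was 8555 CPM in the control library and 3764 CPM in the treated library, with 12 of the 13 called lower, 1 called higher and none at 0 in either library. Elane, Mpo, Cxcr2 and Prtn3, counted among the 12, passed the floor of 50 reads through the control library alone. For 13 monocyte and macrophage genes the sums were 8349 and 5979 CPM. Of the 12 past the floor, 6 were called lower and 3 higher, and none of the 13 was at 0. Beside the counts of these 3 marker lists, 9.31% of all genes past the floor were called higher and 9.42% lower. The sums for B cell genes, 20.1 and 6.63 CPM, and for T and natural killer cell genes, 8.43 and 2.96 CPM, were small. Mast cell, basophil and eosinophil genes summed to 1474 and 1064 CPM, erythroid and megakaryocyte genes to 359 and 169 CPM, and stromal genes to 5.02 and 22.0 CPM. The part of cell composition in the results below was not tested, and in bulk RNA a change in the number of cells of a type cannot be told apart from a change in RNA per cell.

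Transcripts of nearly the whole route from glucose to lactate were more abundant in the treated library. Of the 40 genes, 20 were called higher, 1 was called lower and 19 were neither, with a median log2 fold change of 1.02. Of all 10469 genes with 50 or more reads in either library, 9.31% were called higher and 9.42% lower, with a median of -0.00. The 24 measured genes from glucose entry to lactate held 17 of the 20 higher genes and had a median of 1.67. The 26 listed genes of that stretch together took 0.449% of all control reads and 1.21% of all treated reads. The 7 pentose phosphate genes held none, with a median of 0.01. Aldoa, at a log2 fold change of 1.09, was the higher gene nearest to the threshold, and Ugp2, at 0.96, was the nearest below it.

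**Figure D1:**
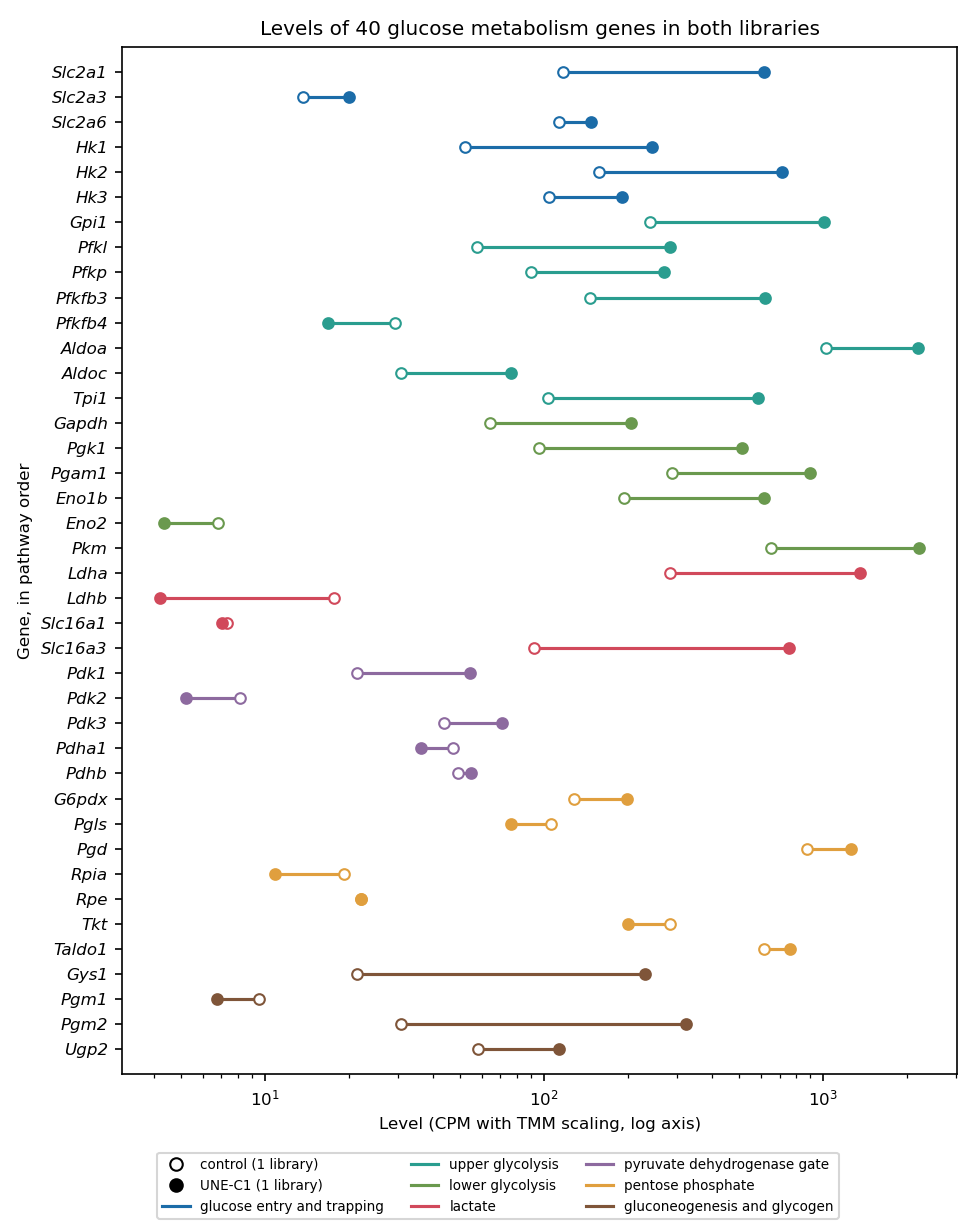
Level of each of the 40 genes in the control library (open circles) and the treated library (filled circles), in CPM on a log axis, in the order of the pathway and coloured by group. Filled circles lie far to the right for most genes from Slc2a1 to Slc16a3 and for Gys1 and Pgm2, while Ldhb runs the other way, from 17.7 to 4.23 CPM.

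The RNA of the glucose transporter genes differed between the libraries to different degrees. Slc2a1, which encodes the glucose transporter GLUT1 (chromosome 4, 119108711 to 119137983, plus strand; all positions are on GRCm38, the assembly also called mm10, and all genes placed are annotated as protein coding), had 1966 reads in the control library and 8730 in the treated library, or 117 and 615 CPM. That is a ratio of 5.24 (interval 4.99 to 5.50). Slc2a6, which encodes GLUT6, a transporter of inner membranes, had 1893 and 2103 reads and a ratio of 1.31 (1.23 to 1.40). In the control these 2 transporters had nearly the same number of reads, and in the treated library Slc2a1 had 4.15 times as many as Slc2a6. Slc2a3, which encodes the high-affinity transporter GLUT3, was low in both libraries with 229 and 285 reads. The share of Slc2a1 in the reads of the 3 transporters was 48.1% (exact 95% binomial interval 46.5 to 49.6) in the control library and 78.5% (77.7 to 79.3) in the treated library. Such a share is taken within 1 library, so it does not depend on how the libraries were scaled, and as reads come from transcript ends it was not divided by length.

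The hexokinases phosphorylate glucose and so hold it in the cell. Hk2, the inducible form bound to mitochondria (chromosome 6, 82725025 to 82774454, minus strand), had 2639 and 10164 reads, a ratio of 4.54 (4.35 to 4.74). Hk1, the form found in most tissues, had 873 and 3479 reads, a ratio of 4.70 (4.36 to 5.07). The number of Hk2 reads per Hk1 read was 3.02 in the control library and 2.92 in the treated library, and the interval of the quotient of these (0.886 to 1.05) includes 1. Hk3, the form typical of myeloid cells, had 1744 and 2709 reads and a ratio of 1.83 (1.72 to 1.95), just short of the threshold. Its share of hexokinase reads was 33.2% in the control library and 16.6% in the treated library.

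In upper glycolysis 7 of 8 measured genes were called higher and none lower. The share over all genes past the floor was 9.31% higher and 9.42% lower, so the absence of lower genes is near the background. Gpi1, the glucose-6-phosphate isomerase, had 4034 and 14330 reads, a ratio of 4.19 (4.05 to 4.34). Of the phosphofructokinases, which catalyse the committed step, the liver-type gene Pfkl had 964 and 4007 reads (ratio 4.90, 4.57 to 5.27) and the platelet-type gene Pfkp 1503 and 3839 (ratio 3.01, 2.84 to 3.20). Pfkp had more reads than Pfkl in the control library, and the numbers were close in the treated library, where Pfkl took 50.9% of phosphofructokinase reads against 38.3% in the control library. The bifunctional PFKFB enzymes make and break fructose 2,6-bisphosphate, the activator of that step. Pfkfb3, whose kinase activity dominates (chromosome 2, 11471433 to 11554077, minus strand), had 2445 and 8839 reads, a ratio of 4.26 (4.08 to 4.46). Its relative Pfkfb4 had 491 and 239 reads, 1.74-fold lower in the treated library (1.49 to 2.04), and was the one gene of this group below 0, at -0.77. Reads of Pfkfb3 per read of Pfkfb4 therefore went from 4.98 in the control library to 37.0 in the treated library.

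Aldolase, the enzyme that splits the sugar, differed least among the steps. Aldoa, which encodes its main form, had 17230 and 31187 reads (1030 and 2199 CPM), a ratio of 2.14 (2.10 to 2.18). Aldoc, the brain-type form, had 514 and 1081 reads, a ratio of 2.48 (2.23 to 2.76). Tpi1, the triose phosphate isomerase that acts next (chromosome 6, 124810586 to 124814296, minus strand), had 1735 and 8301 reads, a ratio of 5.64 (5.36 to 5.95). There were 9.93 Aldoa reads for each Tpi1 read in the control library and 3.76 in the treated library. Both libraries ranked Aldoa above Tpi1 by reads, by a smaller margin with UNE-C1.

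In lower glycolysis 5 of 6 measured genes were called higher and none lower, beside 9.31% and 9.42% of all genes past the floor. Pgk1, the phosphoglycerate kinase that makes the first ATP of the pathway (chromosome X, 106187100 to 106203699, plus strand), had 1615 and 7296 reads, a ratio of 5.33 (5.05 to 5.63). Pgam1, the phosphoglycerate mutase, had 4805 and 12732 reads, a ratio of 3.13 (3.02 to 3.23). Pkm, the pyruvate kinase that ends glycolysis (chromosome 9, 59656368 to 59679375, plus strand), had 10876 and 31404 reads, a ratio of 3.41 (3.33 to 3.48). With 2214 CPM it was close to Aldoa in the treated library, whereas in the control library it stood at 650 CPM. The counts are per gene and do not separate the M1 and M2 forms of pyruvate kinase.

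Near-identical copies in the genome make some of these counts less certain. Pgk1, Pgam1 and Pkm have 2, 3 and 2 annotated copies (transcripts at least 95% identical to the last 400 bases of a member's transcript over 300 bases or more), Ldha has 4, and Gpi1, Tpi1 and Ldhb have 1 each, none of them listed in the files, so how reads shared with them were counted is not known here. For Aldoa and Gapdh, listed copies hold reads of their own. The 1 copy of Aldoa, Aldoart1, had 106 and 147 reads, and with it added the Aldoa ratio was 2.13 (2.09 to 2.17). Gapdh, the dehydrogenase of this pathway and a common reference gene, had 1070 and 2912 reads, a ratio of 3.21 (2.99 to 3.45). Of 107 annotated copies of Gapdh, 5 are listed in the files, with 446 reads in the control library and 1047 in the treated library. The most read of them, Gm12070, had 329 and 828. With these 5 added the Gapdh ratio was 3.08 (2.90 to 3.27). Nearly all alpha-enolase reads are listed under the symbol Eno1b, whose transcript matches an Eno1 transcript end at 100% over 400 bases. The Eno1b transcript end matches Eno1 at 99.7% over 389 bases. Eno1 has other annotated copies that are not listed, among them Gm4735, which also matches at 100% over 400 bases. The reference table also gives Eno1 as a former name of Eno1b, so no position is given for either. Eno1b is listed as 2 entries, with 1544 and 1690 reads in the control library and 4239 and 4499 in the treated library, and their sum has a ratio of 3.19 (3.06 to 3.32). Alpha-enolase reads of these loci cannot be told apart here. Eno2, the neuronal form, had 114 and 62 reads and was 1.56-fold lower (1.13 to 2.16), short of the threshold.

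**Figure D2:**
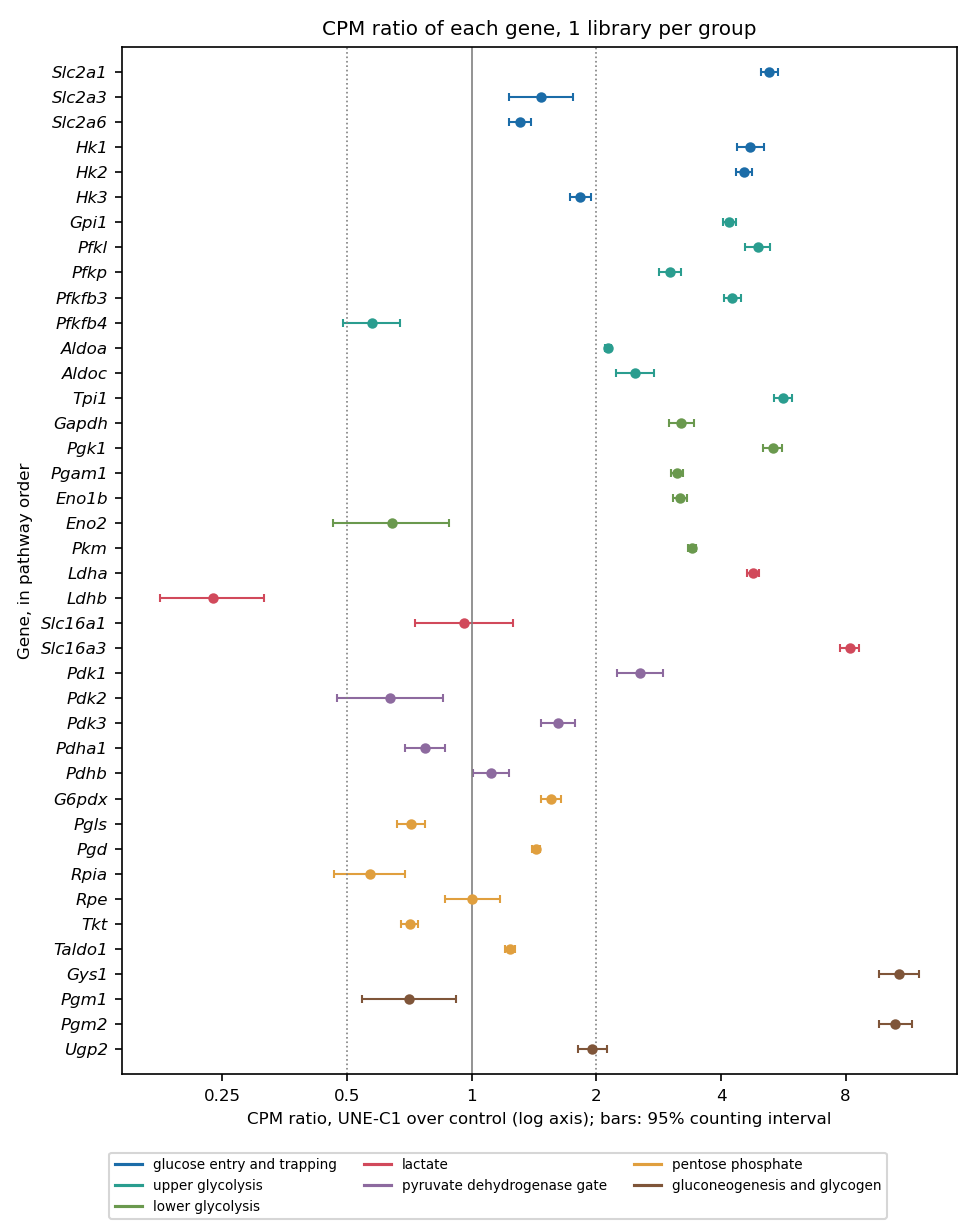
Ratio of CPM, UNE-C1 over control, for each of the 40 genes on a log axis, with 95% counting intervals and dotted lines at 2 and 0.5. Gys1, Pgm2 and Slc16a3 lie farthest to the right, at 10.8, 10.5 and 8.18, the points of all 7 pentose phosphate genes lie between the dotted lines, and Ldhb alone lies wholly to the left of them.

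The lactate dehydrogenase genes differed in opposite directions. Ldha encodes the lactate dehydrogenase subunit that favours lactate formation (chromosome 7, 46841475 to 46855627, plus strand). It had 4745 reads in the control library and 19225 in the treated library, a ratio of 4.78 (4.63 to 4.93). Ldhb encodes the subunit that favours the reverse reaction (chromosome 6, 142490249 to 142507957, minus strand). It had 297 and 60 reads, 4.20-fold lower in the treated library (3.17 to 5.63), and was the only one of the 40 genes called lower. There were 16.0 Ldha reads for each Ldhb read in the control library and 320 in the treated library, a 20.1-fold difference (exact 95% interval 15.1 to 27.0). Ldhb thus went from 5.89% to 0.311% of lactate dehydrogenase reads.

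Lactate leaves cells through monocarboxylate transporters. Slc16a3, which encodes the exporter MCT4 of highly glycolytic cells (chromosome 11, 120948480 to 120960868, plus strand), had 1550 and 10743 reads, or 92.6 and 757 CPM. Its ratio of 8.18 (7.75 to 8.63) was above that of every enzyme between glucose and lactate. Slc16a1, which encodes the more widely expressed MCT1, had only 123 and 100 reads, a ratio of 0.96 whose interval (0.73 to 1.26) includes 1. Bsg, which encodes the chaperone basigin that both transporters need at the membrane and is not one of the 43 genes, had 1543 and 2960 reads, a ratio of 2.26 (2.13 to 2.41). Emb, which encodes embigin, a relative of basigin that also partners such transporters, had 4120 and 1998 reads and a log2 fold change of -0.80.

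Summed by step, the route was higher throughout. All 13 steps from glucose transport to lactate export had a summed ratio above 2, from 2.15 for aldolase to 7.65 for the lactate transporters, and 12 of the 13 were above 3. The 3 PDH kinases, described next, gave 1.78 when summed.

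The upstream sequence of 6 of these genes is shown because genes of 1 function differed in size or direction of change (Ldha and Ldhb, Slc16a3 and Slc16a1), while Pgk1 and Hk2 were higher like Ldha. Each is the 250 bases before a RefSeq transcript start on GRCm38.p6, and of several windows of a gene the one with the most matches is shown. Capitals mark ACGTG or GCGTG on either strand, the core letters of the element that hypoxia-inducible factors bind; CACGTG, the E-box read by MYC and ChREBP-type factors, holds ACGTG on both strands and counts as 2 overlapping matches. The windows lie at chr7:46845554-46845803 (plus strand) for Ldha, chr6:142507958-142508207 (minus) for Ldhb, chr11:120948817-120949066 (plus) for Slc16a3, chr3:104638414-104638663 (plus) for Slc16a1, chrX:106186850-106187099 (plus) for Pgk1 and chr6:82774455-82774704 (minus) for Hk2.
Ldha: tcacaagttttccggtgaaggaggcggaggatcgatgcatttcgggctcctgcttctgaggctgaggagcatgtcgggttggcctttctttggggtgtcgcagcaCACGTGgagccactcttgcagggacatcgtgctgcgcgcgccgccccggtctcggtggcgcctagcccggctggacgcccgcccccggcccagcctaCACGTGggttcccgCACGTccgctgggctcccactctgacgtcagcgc
Ldhb: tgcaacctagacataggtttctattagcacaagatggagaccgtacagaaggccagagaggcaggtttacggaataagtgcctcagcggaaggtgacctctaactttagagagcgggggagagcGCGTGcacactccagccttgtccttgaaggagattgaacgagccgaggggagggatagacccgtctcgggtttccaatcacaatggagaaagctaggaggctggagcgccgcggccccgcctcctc
Slc16a3: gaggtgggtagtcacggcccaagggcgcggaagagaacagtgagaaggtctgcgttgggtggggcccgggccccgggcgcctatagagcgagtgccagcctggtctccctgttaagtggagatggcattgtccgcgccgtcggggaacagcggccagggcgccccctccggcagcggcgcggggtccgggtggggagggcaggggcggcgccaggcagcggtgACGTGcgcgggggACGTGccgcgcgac
Slc16a1: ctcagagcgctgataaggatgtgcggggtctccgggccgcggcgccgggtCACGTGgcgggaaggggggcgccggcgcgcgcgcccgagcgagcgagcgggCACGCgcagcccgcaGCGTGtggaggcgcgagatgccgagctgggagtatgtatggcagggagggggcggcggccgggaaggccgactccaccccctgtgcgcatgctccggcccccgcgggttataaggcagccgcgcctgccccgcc
Pgk1: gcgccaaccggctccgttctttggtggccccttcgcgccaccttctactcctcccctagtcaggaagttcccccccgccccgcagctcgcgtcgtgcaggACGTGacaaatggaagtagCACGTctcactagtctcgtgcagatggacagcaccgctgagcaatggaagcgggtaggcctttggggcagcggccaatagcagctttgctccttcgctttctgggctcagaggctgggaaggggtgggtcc
Hk2: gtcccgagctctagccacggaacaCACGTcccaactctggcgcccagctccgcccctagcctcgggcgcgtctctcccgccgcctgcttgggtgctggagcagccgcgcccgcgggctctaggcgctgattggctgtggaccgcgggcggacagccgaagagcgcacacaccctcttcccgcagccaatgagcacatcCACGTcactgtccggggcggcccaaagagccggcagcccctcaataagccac
The Ldha window shown holds 5 matches, of which 4 form 2 E-boxes, and the Ldhb window holds 1. Ldha alone of the 6 genes has another window, which holds 1 match and no E-box. Slc16a3 holds 2 and Slc16a1, whose reads differed little, holds 4, of which 2 form 1 E-box. The windows of Pgk1 and Hk2 hold 2 each. Promoter windows were found for 38 of the 40 genes, and 33 (86.8%) held at least 1 match in a window. Among the called-higher genes it was 16 of 19 (84.2%) and among those neither higher nor lower 16 of 18 (88.9%). Having a match thus did not separate these groups. At least 2 matches in 1 window were found for 52.6% of the called-higher genes and 44.4% of those neither higher nor lower. For all genes past the floor with a window it was 32.3%. An E-box was found in 10.5% of the called-higher genes, 11.1% of those neither higher nor lower and 10.2% of all genes past the floor with a window. Of all 8057 genes past the floor with a window, 62.2% held a match, as did 41.5% of all 27025 genes with a window. Counted by window, it was 75.5% for the 38 genes, 56.1% for all genes past the floor and 38.6% for all 32851 windows. A match is a stretch of letters and not a measured binding site, and base composition was not taken into account.

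At the pyruvate dehydrogenase step the genes differed in direction. Pdk1, a kinase that switches the pyruvate dehydrogenase complex off, had 358 and 775 reads, a ratio of 2.55 (2.25 to 2.90), and was the 1 gene of 5 called higher. None of the 5 was called lower. Over all genes past the floor 9.31% were called higher and 9.42% lower, so for 5 genes these counts are near the background. Pdk3, another such kinase, had 733 and 1005 reads (ratio 1.62, 1.47 to 1.78). Pdk2 had 137 and 74 reads and was 1.57-fold lower (1.17 to 2.11). Pdha1, the catalytic subunit that these kinases phosphorylate, had 789 and 516 reads and was 1.30-fold lower (1.16 to 1.45), while Pdhb, its partner subunit, had 822 and 778 (ratio 1.12, 1.01 to 1.23). The number of Ldha reads per Pdha1 read was 6.01 in the control library and 37.3 in the treated library. The pyruvate carriers Mpc1 and Mpc2, which are not among the 43 genes, had log2 fold changes of 0.03 and -0.04, and Pdk4 was nearly absent with 8 and 2 reads.

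None of the 7 pentose phosphate genes was called higher or lower. Of all genes past the floor 9.31% were called higher and 9.42% lower, so for 7 genes that count is near the background. In the oxidative arm, G6pdx, the dehydrogenase that opens the pathway, had 2141 and 2818 reads (ratio 1.55, 1.47 to 1.64). Pgd, the second NADPH-making dehydrogenase, had 14721 and 17842 reads (880 and 1258 CPM, ratio 1.43, 1.40 to 1.46). Pgls, the lactonase between them, had 1781 and 1080 reads and was 1.40-fold lower (1.30 to 1.51). A transcript of Fam129c, with 51 and 14 reads, shares 397 bases at 100% with the Pgls end, so a few reads could belong to either. The dehydrogenases were thus slightly higher and the lactonase slightly lower.

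In the non-oxidative arm, Tkt, the transketolase, had 4743 and 2852 reads and was 1.41-fold lower (1.35 to 1.48). Taldo1, the transaldolase, had 10324 and 10846 reads (ratio 1.24, 1.21 to 1.27). Rpia, the ribose phosphate isomerase, had 322 and 155 reads and was 1.76-fold lower (1.45 to 2.15). Rpe, the epimerase, had 370 and 315 reads and a ratio of 1.00 (0.86 to 1.17). Pgd reads per Tkt read went from 3.10 to 6.26. Set against each other within a library, the genes from glucose entry to lactate had 1.94 reads for every pentose phosphate read in the control library and 5.36 in the treated library, a 2.76-fold difference (2.72 to 2.81) that does not depend on scaling.

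**Figure D3:**
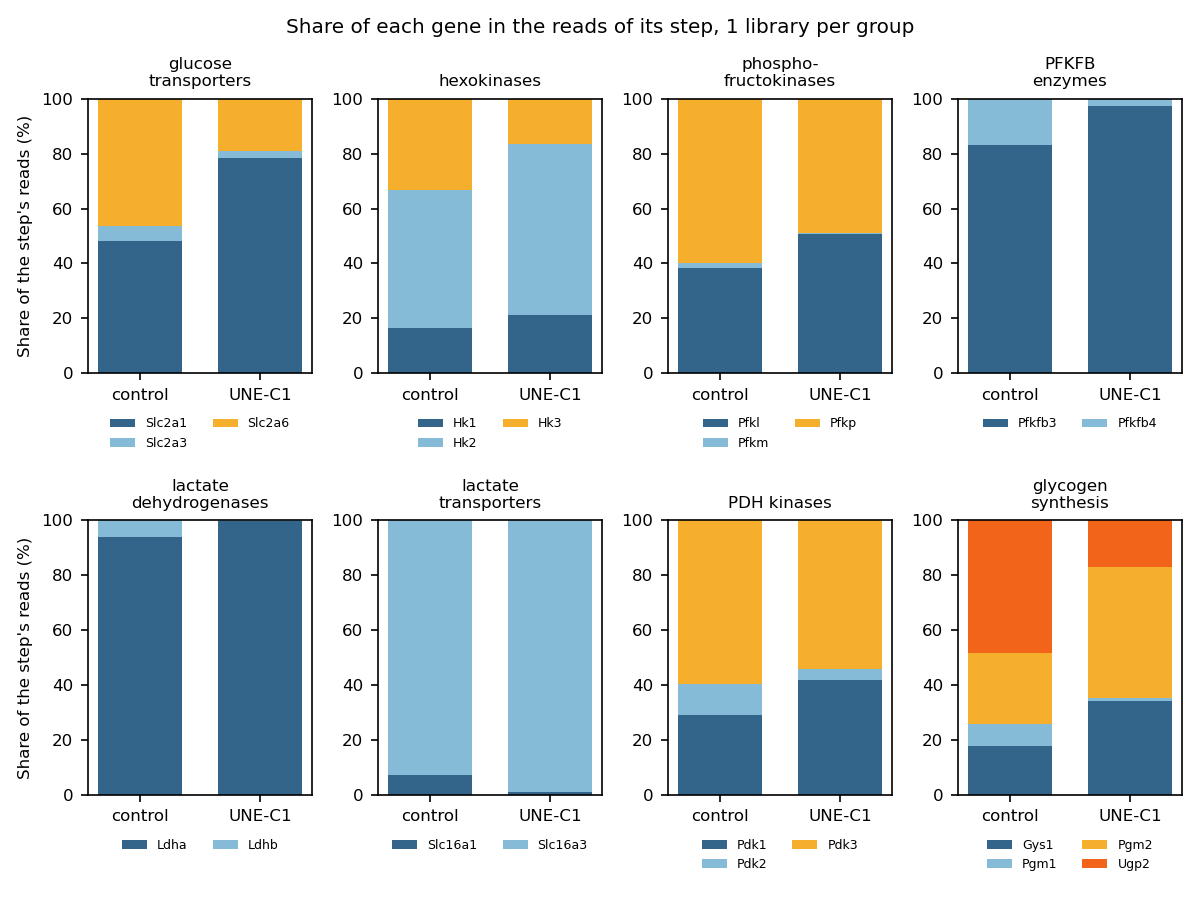
Share of each gene in the summed reads of its step, in percent, for both libraries, in 8 steps with several genes. Slc2a1 goes from 48.1% to 78.5% of transporter reads and Hk3 from 33.2% to 16.6% of hexokinase reads, while the minor isoforms Ldhb, Slc16a1 and Pfkfb4 shrink to 0.311%, 0.922% and 2.63%.

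Of the 4 measured genes listed under glycogen synthesis, Gys1 and Pgm2 had the highest fold changes of all 40 genes. Ugp2 and Pgm1 were not called. Gys1, the glycogen synthase outside liver (chromosome 7, 45434844 to 45456619, plus strand), had 358 reads in the control library and 3264 in the treated library, or 21.4 and 230 CPM. Its ratio was 10.8 (9.64 to 12.0), rank 89 of the 10469 genes from the top. Pgm2 had 516 and 4607 reads, a ratio of 10.5 (9.61 to 11.6) and rank 92. Pgm1 had 160 and 96 reads and was 1.41-fold lower (1.09 to 1.84). Both names belong to genes of the phosphoglucomutase family, which includes the enzyme that links glucose-6-phosphate to glycogen. The reference table gives each name as a former name of the other. Which locus the files mean by each name is not stated, so no position is given for them. Which of them is the glycogen enzyme is not settled here. Ugp2, which makes the UDP-glucose that the synthase uses, had 972 and 1612 reads, a ratio of 1.96 (1.81 to 2.12).

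On a list of 25 further genes of glycogen handling and gluconeogenesis, of which 20 passed the floor, 4 were called higher and none lower, with a median of 0.17, against 9.31% higher and 9.42% lower over all genes. Gbe1, the branching enzyme, had 814 and 2537 reads, a ratio of 3.68 (3.40 to 3.98). Ppp1r3b, which brings protein phosphatase 1 to glycogen and activates the synthase, had 52 and 247 reads, a ratio of 5.60 (4.14 to 7.71). Slc37a4, the glucose-6-phosphate transporter of the endoplasmic reticulum, had 128 and 322 reads (ratio 2.97, 2.41 to 3.67), and Pcx, pyruvate carboxylase, which passed the floor through the treated library alone, 35 and 76 (ratio 2.56, 1.70 to 3.94). Pygl, the main myeloid glycogen phosphorylase, which breaks glycogen down, was not called, at a log2 fold change of 0.21. Gyg, the glycogenin that primes the polymer, stood at 0.34. Ppp1r3d, of the same targeting family as Ppp1r3b, stood at -0.68, so genes that act in building glycogen differed among themselves.

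**Figure D4:**
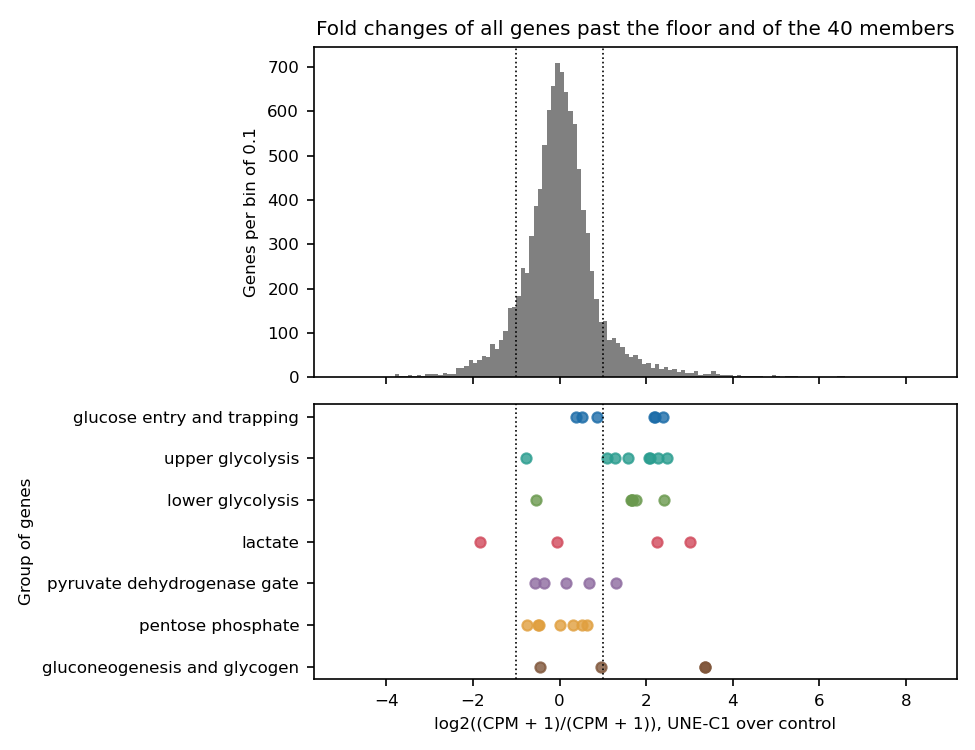
Histogram of the log2 fold change of all 10469 genes past the floor (top) and the values of the 40 genes by group (bottom), with dotted lines at 2-fold. The histogram centres on 0, the pentose phosphate genes sit in its middle, and Gys1 and Pgm2 lie beyond 3.

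The remaining genes of the pathway, on 5 further lists, held few called genes. Of the 80 genes past the floor on all 6 lists, glycogen included, 8 were called higher and 5 lower, with a median of 0.02. These counts are close to the background of 9.31% and 9.42%. None of the 11 other sugar transporters and first-step genes was called higher, and Adpgk, an ADP-dependent glucokinase, was called lower with 491 and 121 reads (3.44-fold, 2.81 to 4.23). Of 9 other glycolytic isoenzymes and side-branch genes 0 were called higher, and Shmt2, a mitochondrial serine hydroxymethyltransferase, was called lower (2.67-fold, 2.02 to 3.58). With 11 and 9 genes, 0 called higher is near the background. The fructose 2,6-bisphosphatase Tigar stood at -0.14. Beyond the pentose phosphate members, Idnk, a gluconate kinase, was called higher with 564 and 1496 reads (ratio 3.13, 2.84 to 3.45). Prps1, which turns ribose phosphate into the nucleotide precursor PRPP, was called lower with 300 and 76 reads (3.35-fold, 2.59 to 4.36), as was Pgm2l1, a glucose 1,6-bisphosphate synthase (2.45-fold, 1.99 to 3.03).

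Among 21 measured regulators, 2 were called higher and 1 lower, against 9.31% and 9.42% of all genes, so the higher count is at the background. The higher genes were Egln1 and Egln3, oxygen sensors that mark HIF-1 alpha for breakdown and are themselves HIF targets. Egln1 had 657 and 2512 reads (ratio 4.51, 4.14 to 4.92). Egln3 had 105 and 3956 reads, a ratio of 44.4 (36.6 to 54.5) and rank 18 of the 10469 genes from the top. Hif1a itself had 1592 and 1849 reads, a ratio of 1.37 (1.28 to 1.47). Myc, a transcription factor that can drive glycolytic genes, was the lower one, with 96 and 2 reads (40.7-fold lower, 11.0 to 341), and passed the floor through the control library alone. Txnip, which limits glucose uptake, had 4639 and 3083 reads and was 1.28-fold lower (1.22 to 1.34).

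Scaling bears on the genes near the threshold. When libraries were scaled by total counts alone, the median of all genes was -0.33, and 17 of the 40 genes were called higher and 3 lower: Aldoa, Aldoc and Pdk1 were no longer called, and Pfkfb4 and Rpia joined Ldhb. Over all genes that scaling gave 6.28% higher and 16.2% lower. Pdhb, Rpe and Taldo1, all close to 0, turned negative under that scaling, and the summed ratio of the pentose phosphate genes went from 1.23 to 0.97.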

How the data were processed

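The authors deposited 1 table of whole-number read counts per gene symbol for each of the 2 libraries, with no normalization, as read from the values. Bowtie2, edgeR and the mm10 build appear in the submitters' processing notes, without versions or roles. The sources used here do not give the counting tool, annotation, strand setting or handling of multiply mapped reads. Each table has 23282 entries, and the 35 repeated symbols were summed.

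TMM factors (edgeR 4.0.16, R 4.3.3) came to 1.13 (control) and 0.888 (UNE-C1). The floor of 50 reads equals 2.99 and 3.52 CPM. With 1 library per group no test was run. Intervals are exact binomial (scipy 1.17.1), cover counting error only, and treat reads as independent, although no molecular identifiers are named. The scripts were tested on simulated counts with known changes.

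All 43 listed genes could be named, and of related genes those called and a fixed few; Pdk4, Mpc1, Mpc2, Emb, Tigar, Pygl, Gyg and Ppp1r3d were chosen after their values were seen. Members and lists were chosen with earlier results of these data known. Positions come from GENCODE M21 (GRCm38) and promoter windows from RefSeq (GRCm38.p6), which matched 41 of the 43 symbols. Copies were sought with blastn 2.17.0.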

Additional observations from a re-analysis of the deposited data

How the results depend on the processing

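The count of genes called higher was 20 under TMM and under every other scaling, pseudocount and floor tried except total counts, where it was 17. The count called lower was 1, again except with total counts, where it was 3. The share of higher genes among those called went from 95.2% to 85% with total counts. When total counts were centred on the median gene, an alternative added after seeing the data, the counts were 20 and 1 again. The median log2 fold change of 1.02 was 0.68 with total counts, 0.87 over the 43 genes with no floor, and 1.30 over the 36 genes past a floor of 200 reads. The first moved with the median of all genes, and the other 2 are over other sets of genes. No called gene changed direction in any scaling, pseudocount or copy setting. Leaving out a library was not possible with 1 per group. No paired analysis was possible because each group has a single library. The files list no symbol made of a member's name and a pseudogene or related-sequence suffix, so that alternative gave no value, and copies found by sequence were added instead, a choice made after seeing the data.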
